A study of Mus musculus with 20 samples.

Results

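The genes described here are those of the major histocompatibility complex (MHC) and of the machinery that cuts, transports and loads its peptides, measured in livers after knockdown (KD) of the RNA-binding protein HuR. They were chosen by name: every protein-coding gene whose symbol starts with H2- in the mouse table or HLA- in the human table, and B2M, TAP1, TAP2, TAPBP, ERAP1, NLRC5, CIITA, CD74, PSMB8, PSMB9 and PSMB10 in either. This gave 75 of the 115942 gene rows listed, 45 of 55335 in the table of wild type (WT) livers and 30 of 60607 in the table of humanized livers.

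Class I molecules present peptides from inside the cell to CD8 T cells and are made by nearly all nucleated cells, hepatocytes included. Each is a heavy chain, such as HLA-B and HLA-C in humans or H2-K1 and H2-D1 in the mouse, paired with beta-2-microglobulin, and its peptides are cut by the proteasome, carried into the endoplasmic reticulum by the TAP transporter, trimmed by ERAP1 and loaded with the help of tapasin. Class II molecules present peptides taken up from outside to CD4 T cells and are made mainly by dendritic cells, B cells and macrophages. CD74, the invariant chain, guards their groove. NLRC5 and CIITA are the transactivators of class I and class II genes.

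The study asked whether human and mouse liver cells respond alike to loss of HuR. Male C57BL/6 mice bought at 8 weeks of age and acclimatized for 10 to 14 days formed the WT groups, 6 HuR KD and 6 LacZ. The humanized groups, 4 HuR KD and 4 LacZ, were TK-NOG mice, a severely immune-deficient NOG strain with a thymidine kinase transgene that the mouse albumin promoter drives in hepatocytes. Ganciclovir at 25 mg/kg, given at 8 to 9 weeks of age, killed the host hepatocytes, 1000000 cryopreserved human hepatocytes were then transplanted, and mice with over 0.5 mg/ml human albumin in serum at 8 to 12 weeks after transplantation were used. All mice received adenovirus intravenously at 2000000000 pfu, carrying an shRNA against mouse HuR (WT mice) or human HuR (humanized mice), or the LacZ control virus. Livers were taken after 7 days and a 4 h fast. The human cells were therefore hepatocytes in a host that keeps its own non-parenchymal cells, and the humanized table lists human genes only. No label ties a transplant donor to a liver, and the p-values measure the spread between livers.

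Values are TPM, read counts scaled by gene length and by the library total, and depth was read back from their steps. WT livers held 1423985 to 44668272 assigned reads, of which LacZ 2 was the lowest and the next, HuR KD 6, held 12960373. Humanized livers held 2670469 to 20302454 reads, with mitochondrial rRNA taking 27.2% to 49.1% of TPM. The deepest humanized livers, HuR KD 4 and LacZ 2, deviated from their group means together, and the results that rest on them are also given without them. The summed TPM of 8 hepatocyte markers ranged from 70931 to 90554 in WT livers and from 41587 to 88961 in humanized livers. The summed human Kupffer cell, dendritic cell and B cell markers in the humanized livers did not exceed 1.24, 0.200 and 0.537 TPM. Those of cholangiocytes, stellate cells, T and NK cells, endothelial cells and neutrophils reached 35.9, 7.17, 4.86, 1.98 and 1.04 TPM.

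HuR mRNA (Elavl1) in WT livers was 3.72, 4.97 and 5.62 TPM (lowest, median and highest of 6) with HuR KD and 8.58, 9.49 and 10.7 TPM with LacZ, a log2 fold change of −0.83 ± 0.09 (SE, limma adjusted p = 0.00105, exact permutation p = 0.00216, two-sided). In humanized livers human ELAVL1 was 2.37 to 4.05 TPM with HuR KD and 4.77 to 6.17 TPM with LacZ (−0.59 ± 0.17, limma adjusted p = 0.214, exact permutation p = 0.0286, the smallest that 70 groupings allow). The groups did not overlap in either species. Fold changes throughout are on the log2(TPM + 1) scale, which understates the change of low genes.

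In WT livers many class I chains and genes that supply their peptides were lower with HuR KD. The classical heavy chains H2-K1 and H2-D1 fell to 75.6% and 73.4% of their LacZ means, beta-2-microglobulin to 83.3%, and all 4 peptide supply and loading genes fell with them. None of the class II chains, their exchange factors or Cd74 passed the test, and the class II chains and Cd74 had log2 fold changes of 0.05 to 0.18 with wide errors; no test of class I against class II was made. Of 5 proteases of class II processing, which the choice by name does not take in, Ctss, Ctsd and Lgmn were lower. The other proteases, Ctsb and Ctsl, had log2 fold changes of −0.12 and 0.29 and did not pass. Of the 45 members, 27 passed a filter of a mean of 1 TPM. Of these, 14 were lower with HuR KD at an unadjusted p under 0.05, the threshold the study used for HuR KD, where 6.94% of the 15090 genes tested were lower. No member was higher, against 9.09% of all genes. After adjustment over all genes 1 member, H2-T24, passed 0.05, against 0.888% of all genes in either direction. In 3 members, H2-K1, H2-D1 and Erap1, every HuR KD liver lay below every LacZ liver, which held for 1.23% of all genes tested. In the sentences that follow, fell, rose and passed refer to the unadjusted threshold, and the p printed is the limma value adjusted over all genes tested. The median log2 fold change was −0.34 over the 11 class I chains tested, −0.36 over the 4 loading genes, −0.30 over the 3 immunoproteasome subunits and 0.15 over the 3 class II chains tested, beside 0.03 over all genes tested. The class II median ranged from 0.0098 (without LacZ 5) to 0.26 (without LacZ 1) with a liver left out. Whether fewer cells of a type or less RNA per cell lies behind a difference cannot be told apart in bulk liver.

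**Figure D1:**
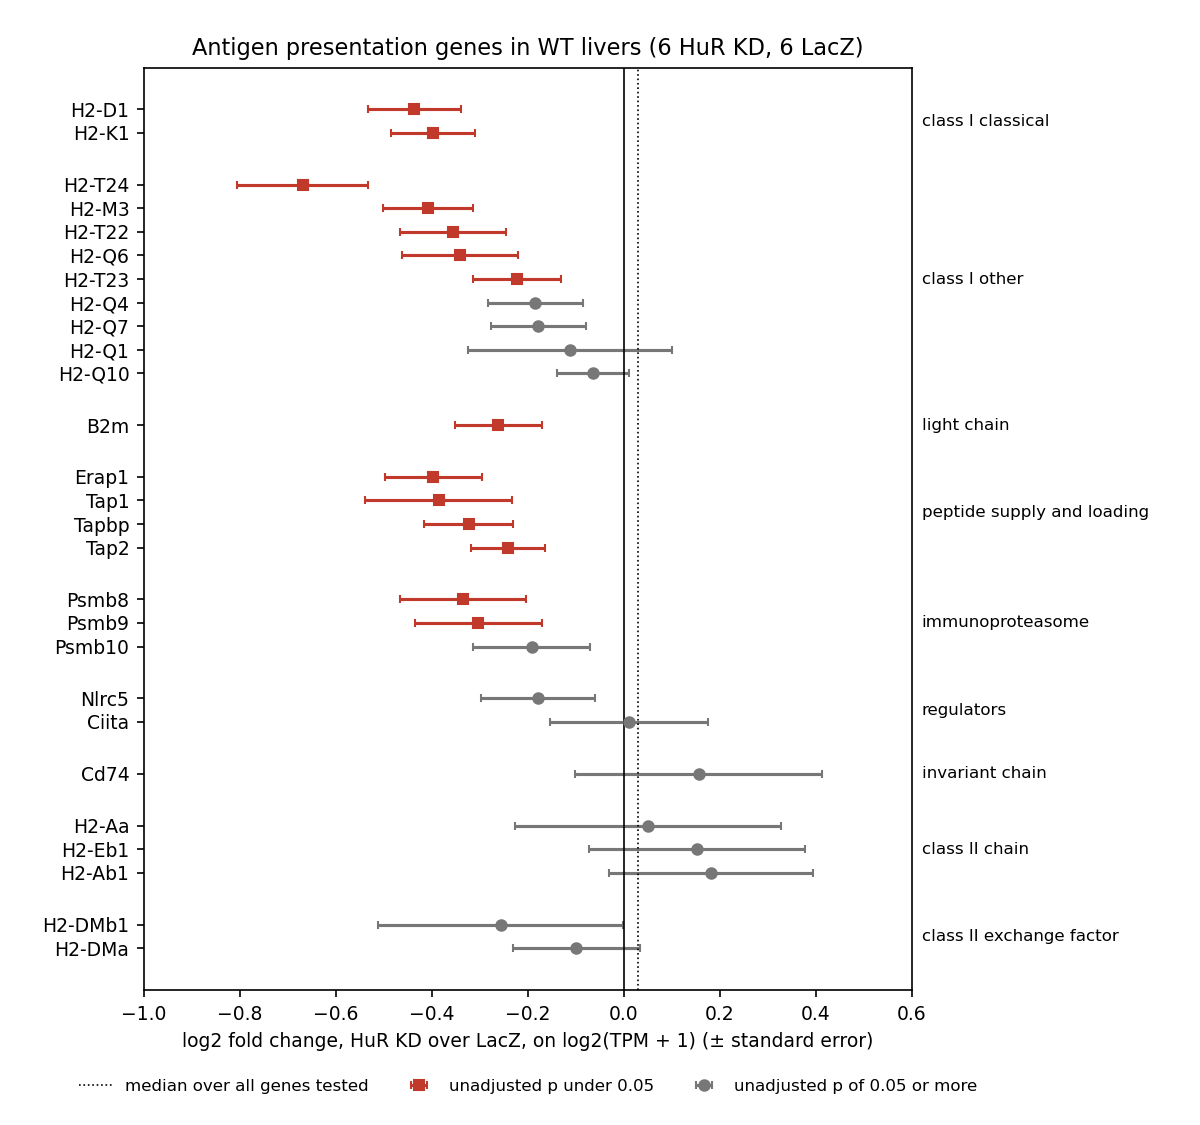
Log2 fold change of HuR KD over LacZ on log2(TPM + 1), with its standard error, for the 27 tested antigen presentation genes in WT livers, grouped by role; squares mark an unadjusted limma p under 0.05 and the dotted line the median over all genes tested (0.03). The 14 squares all lie left of 0, in the class I, light chain, loading and immunoproteasome groups, while the class II chains and Cd74 lie right of 0 with bars that cross it.

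Of the 45 mouse members, 39 lie on chromosome 17 (GENCODE M21 annotation, GRCm38). H2-K1 (ENSMUSG00000061232.16, chr17:33996017-34000347, minus strand) is the first class I gene of the complex, next to the class II block. Its level was 619, 706 and 788 TPM (lowest, median and highest of 6) with HuR KD and 794, 935 and 1082 TPM with LacZ. The highest HuR KD liver stayed just under the lowest LacZ liver. The log2 fold change was −0.40 ± 0.09 (SE, limma adjusted p = 0.0528).

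H2-D1 (chr17:35262730-35267499, plus strand), the other classical heavy chain of this strain, was 369.6, 402 and 462 TPM with HuR KD and 470.0, 556 and 675 TPM with LacZ. The groups again did not overlap, and the log2 fold change was −0.44 ± 0.10 (limma adjusted p = 0.0537). The sum of both chains was 1113 ± 75.5 TPM with HuR KD and 1489 ± 194 TPM with LacZ (SD, n = 6). Both adjusted values sat at the edge of the threshold: over the other settings with all livers they ranged from 0.0261 to 0.118 for H2-K1 and from 0.0232 to 0.105 for H2-D1.

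H2-Q10, which encodes a secreted class I molecule made by hepatocytes, was nearly as abundant and did not pass the test. Its level was 539, 579.8 and 649 TPM with HuR KD and 543, 615 and 721 TPM with LacZ (−0.06 ± 0.08, limma adjusted p = 0.736). The groups overlapped almost entirely. Set against H2-K1 and H2-D1 in the same liver, H2-Q10 made up 32.8% to 36.1% of the TPM of these 3 genes with HuR KD and 27.6% to 31.0% with LacZ, with no overlap. This share was looked at after the values were seen and carries no test.

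The promoters of these genes show how alike and how different the 3 chains are. RefSeq promoter windows (GRCm38.p6, 250 bases before to 50 after the start) were found for 38 of the 45 mouse members and 20 of the 27 tested. The 5 motifs searched on both strands, printed in capitals below, were the kappaB core of the class I enhancer (GGGATTCC, in 1.06% of 32851 promoter windows), the interferon response element core (GAAANNGAA, 8.56%), the X1 box core (GCAAC, 35.2%), the X2 box core (TGACG, 20.8%) and the Y box (ATTGG, 37.4%). No 2 of these motifs overlap in the windows shown, other than an X2 core with its own reverse complement in H2-Aa. The windows of both fallen heavy chains and of H2-Q10 are shown first, all read 5′ to 3′ on the strand of the gene. H2-K1 is at chr17:34000298-34000597 (minus strand), H2-D1 at chr17:35262844-35263143 and H2-Q10 at chr17:35469839-35470138 (plus strand).
H2-K1: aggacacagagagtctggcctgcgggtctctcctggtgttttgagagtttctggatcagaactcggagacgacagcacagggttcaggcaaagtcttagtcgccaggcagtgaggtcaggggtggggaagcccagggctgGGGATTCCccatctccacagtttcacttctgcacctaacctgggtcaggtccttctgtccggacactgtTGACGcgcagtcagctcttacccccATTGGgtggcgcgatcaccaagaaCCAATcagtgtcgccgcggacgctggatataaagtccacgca
H2-D1: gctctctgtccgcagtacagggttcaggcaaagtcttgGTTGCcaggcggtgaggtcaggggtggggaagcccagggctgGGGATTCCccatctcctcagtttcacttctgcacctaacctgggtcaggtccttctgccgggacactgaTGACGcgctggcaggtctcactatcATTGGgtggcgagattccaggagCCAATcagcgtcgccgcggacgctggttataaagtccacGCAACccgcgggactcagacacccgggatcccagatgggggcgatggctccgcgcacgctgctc
H2-Q10: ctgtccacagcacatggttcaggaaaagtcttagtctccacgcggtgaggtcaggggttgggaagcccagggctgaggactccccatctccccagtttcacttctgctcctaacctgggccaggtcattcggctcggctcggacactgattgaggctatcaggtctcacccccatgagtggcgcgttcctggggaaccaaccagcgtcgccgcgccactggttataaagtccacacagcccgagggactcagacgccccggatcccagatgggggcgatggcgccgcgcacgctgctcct
H2-K1 and H2-D1 both hold the kappaB core, the X2 core and a Y box on each strand. H2-Q10 holds none of the 5 motifs as spelled in this window, although 254 of its 291 bases aligned to H2-D1 are identical (87.3%). The kappaB core was found in 4 of the 38 member windows, those of H2-K1, H2-D1, H2-Q6 and H2-Q7. H2-Q7, which also holds an X2 core and a Y box, did not pass the test. The windows of B2m, Erap1, Tapbp, Tap1, Psmb8, Psmb9, H2-T22, H2-T23 and H2-M3, which fell, hold no kappaB core. Whether these motifs go with the fall was not tested. A match is a description of the letters, not a binding site.

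Among the non-classical class I chains, H2-T24 had the largest log2 fold change of the 27 members tested. It was 6.87, 8.30 and 11.4 TPM with HuR KD and 10.5, 13.7 and 19.4 TPM with LacZ (−0.67 ± 0.14, limma adjusted p = 0.0453). The groups overlapped only at their edges, and the highest LacZ value, in the shallow liver LacZ 2, rested on 25 reads. The limma adjusted p ranged from 0.0205 to 0.0893 over the other settings with all livers, and from 0.0318 to 0.118 with a liver left out. H2-M3, which presents formylated peptides, was 5.59, 6.71 and 7.45 TPM with HuR KD and 7.33, 9.13 and 10.6 TPM with LacZ (−0.41 ± 0.09, limma adjusted p = 0.0580). The highest HuR KD liver passed the lowest LacZ liver by a small margin, and the highest LacZ value, in LacZ 2, rested on 9 reads.

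H2-T22 fell from a mean of 46.1 ± 8.06 to 35.5 ± 3.74 TPM (SD, n = 6), and H2-Q6 from 34.6 ± 6.05 to 26.9 ± 3.68 TPM. H2-T23, the mouse Qa-1 chain that NK cells read through an inhibitory receptor, fell from 149 ± 18.2 to 127 ± 13.1 TPM. Its call was lost when any of 4 livers was left out. H2-Q4, H2-Q7 and H2-Q1 had log2 fold changes of −0.18, −0.18 and −0.11 and did not pass. All 11 class I chains tested were below 0, and 7 of them passed.

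The class I chains are near copies of each other, and reads could be split or lost between them. Of the distinct stretches of 50 bases in each gene's transcripts, 9.63% in H2-K1 and 12.8% in H2-D1 also occur in another gene, 19.0% in H2-Q10, 31.97% in H2-Q6, 34.5% in H2-T22 and 3.17% in H2-T24. Values of H2-Q6 and H2-T22 are the least certain. The 13 class I chains that were not tested included 9 listed at 0 in every liver and 4 with at most 1.09 TPM in any liver, H2-Q2, H2-M2, H2-M5 and H2-T3. The last member in the H2 list, H2-Ke6, is no MHC chain. It was under the filter at 0.700 and 0.534 TPM.

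B2m, the light chain that every class I heavy chain needs for folding, was the most abundant member. Its level was 3331, 3865 and 4337 TPM with HuR KD and 4038, 4592 and 5370.1 TPM with LacZ. The groups overlapped, with a log2 fold change of −0.26 ± 0.09 (limma adjusted p = 0.177). Its promoter, at chr2:122147437-122147736 (plus strand), is shown because it holds the interferon element core as spelled here, beside a Y box and 2 X2 cores. The windows of H2-K1 and H2-D1 hold no match to that spelling, and other spellings of the element were not searched.
B2m: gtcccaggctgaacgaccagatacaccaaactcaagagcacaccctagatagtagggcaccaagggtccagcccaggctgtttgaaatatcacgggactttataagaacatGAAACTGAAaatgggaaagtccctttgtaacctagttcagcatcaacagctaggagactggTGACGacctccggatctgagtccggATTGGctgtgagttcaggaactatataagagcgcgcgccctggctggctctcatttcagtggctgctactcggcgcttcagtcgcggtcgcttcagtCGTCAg
The interferon element core as spelled here was found in 4 of the 38 member windows, those of B2m, Erap1, H2-T23 and H2-T22.

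**Figure D2:**
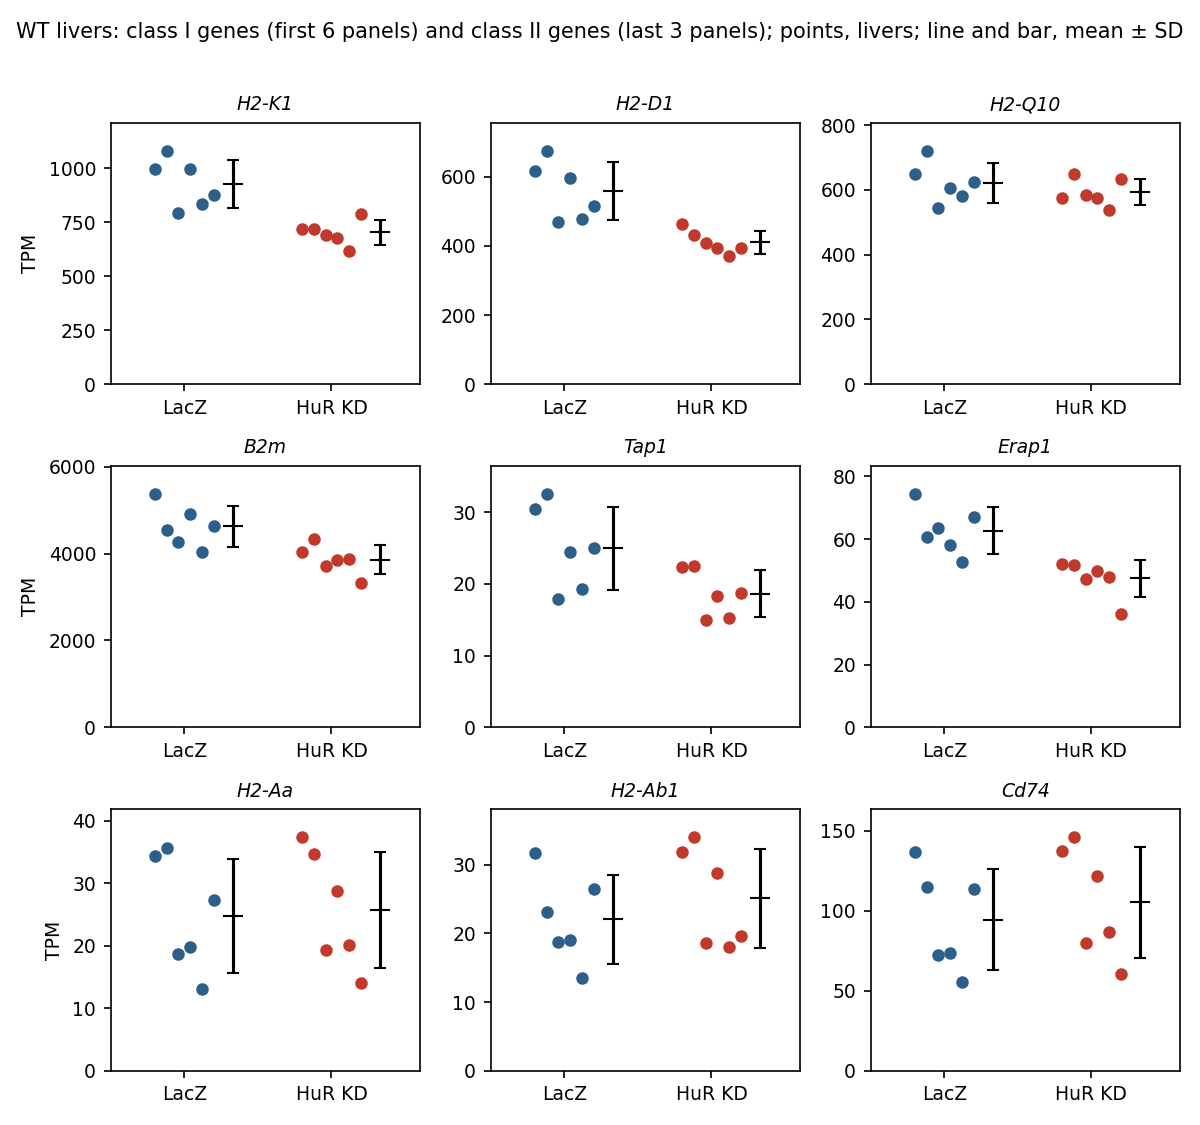
TPM of 9 antigen presentation genes in each WT liver, with the mean and SD of each group of 6; every axis starts at 0. In H2-K1, H2-D1 and Erap1 every HuR KD liver lies below every LacZ liver; in H2-Q10 the groups overlap almost fully, and in H2-Aa, H2-Ab1 and Cd74 each group covers a wide and shared range.

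All 4 genes of peptide supply and loading fell in WT livers. Erap1, the aminopeptidase that trims peptides to length, was 36.1, 48.9 and 52.1 TPM with HuR KD and 52.6, 62.1 and 74.4 TPM with LacZ. The groups did not overlap (−0.40 ± 0.10, limma adjusted p = 0.0802). Tap1, one chain of the peptide transporter, was 14.9, 18.5 and 22.4 TPM with HuR KD and 17.9, 24.7 and 32.5 TPM with LacZ (−0.39 ± 0.15, limma adjusted p = 0.239). Here the ranges overlapped, and the call was lost when any of 4 livers was left out. Tap2, the partner chain, fell from 12.7 ± 1.51 to 10.6 ± 0.618 TPM (limma adjusted p = 0.150). Tapbp, which encodes tapasin, the bridge between TAP and the empty class I molecule, fell from 52.0 ± 6.52 to 41.3 ± 4.44 TPM (limma adjusted p = 0.114).

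The immunoproteasome swaps 3 catalytic subunits of the standard proteasome for forms that cut peptides better suited to class I. Psmb8 fell from 24.4 ± 4.12 to 19.1 ± 3.59 TPM (limma adjusted p = 0.233) and Psmb9 from 11.7 ± 2.09 to 9.27 ± 1.85 TPM (limma adjusted p = 0.282). Psmb10 was 24.6 ± 2.68 TPM with HuR KD and 28.6 ± 5.49 TPM with LacZ and did not pass (limma adjusted p = 0.485). The standard subunits that they replace, Psmb5, Psmb6 and Psmb7, had log2 fold changes between −0.01 and 0.00. The ratio of Psmb8 to Psmb5 had a median of 0.210 with HuR KD and 0.250 with LacZ and that of Psmb9 to Psmb6 0.0724 and 0.0933, with overlapping ranges. Psmb9 was the weakest of the 14 calls, since it was lost when any of 8 of the 12 livers was left out.

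Tap1 and Psmb9 are read in opposite directions from a shared promoter, and both fell. The 275 bases that their RefSeq windows share, chr17:34187306-34187580, are printed on the plus strand and hold a Y box, an X1 core and an X2 core.
Tap1 and Psmb9: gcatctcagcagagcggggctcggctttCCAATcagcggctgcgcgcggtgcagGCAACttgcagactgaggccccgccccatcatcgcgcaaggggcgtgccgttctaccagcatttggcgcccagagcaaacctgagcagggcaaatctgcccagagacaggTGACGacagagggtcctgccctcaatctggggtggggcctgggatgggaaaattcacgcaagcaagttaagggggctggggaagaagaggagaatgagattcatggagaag
Neither the interferon element core nor the kappaB core was found in this stretch as spelled here.

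None of the class II chains passed the test. H2-Aa, the alpha chain of the I-A molecule, was 13.996, 24.4 and 37.4 TPM with HuR KD and 13.0, 23.6 and 35.7 TPM with LacZ (0.05 ± 0.28, limma adjusted p = 0.9495). H2-Ab1, its beta chain, was 18.03, 24.2 and 34.0 TPM with HuR KD and 13.4, 21.0 and 31.7 TPM with LacZ (0.18 ± 0.21, limma adjusted p = 0.736). H2-Eb1 was 20.4, 25.4 and 36.9 TPM with HuR KD and 14.3, 24.3 and 35.3 TPM with LacZ (0.15 ± 0.23, limma adjusted p = 0.795). The spread within each group was over 2-fold for H2-Aa and the groups covered the same range. A difference of the size seen in H2-K1 is under 2 standard errors of each of these 3 chains, so it could easily have been missed here.

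Cd74 was 60.4, 104 and 146 TPM with HuR KD and 55.7, 93.7 and 136.7 TPM with LacZ (0.16 ± 0.26, limma adjusted p = 0.820). The peptide exchange factor chains H2-DMa and H2-DMb1 had log2 fold changes of −0.10 ± 0.13 and −0.26 ± 0.26 and did not pass. H2-Oa, H2-Ob, H2-DMb2 and H2-Eb2 were under the filter. Summed over H2-Aa, H2-Ab1 and H2-Eb1, class II stood at 78.5 ± 23.7 TPM with HuR KD and 72.2 ± 23.4 TPM with LacZ (SD, n = 6). The ratio of H2-K1 plus H2-D1 to this sum was 10.9 to 21.0 with HuR KD and 15.9 to 32.3 with LacZ, with overlap. The H2-Aa window (chr17:34287774-34288073, minus strand) is shown for contrast with the class I windows: its X1 core, X2 core and Y box follow each other at positions 170, 177 and 203 of the 300 bases, and the kappaB core is not found.
H2-Aa: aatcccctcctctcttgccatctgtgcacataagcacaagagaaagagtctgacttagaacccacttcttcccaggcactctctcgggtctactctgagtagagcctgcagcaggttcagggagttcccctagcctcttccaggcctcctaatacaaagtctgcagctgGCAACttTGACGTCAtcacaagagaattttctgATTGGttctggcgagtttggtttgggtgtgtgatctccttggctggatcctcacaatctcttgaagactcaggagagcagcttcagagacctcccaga

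The regulators did not pass the test. Nlrc5 was 13.7, 18.7 and 24.5 TPM with HuR KD and 19.1, 21.7 and 25.4 TPM with LacZ (−0.18 ± 0.12, limma adjusted p = 0.509), and Ciita was 0.817, 1.17 and 2.05 TPM with HuR KD and 0.683, 1.30 and 1.81 TPM with LacZ (0.01 ± 0.17, limma adjusted p = 0.982). Across the 12 WT livers Cd74 rose with Ciita in both groups. Pearson's r was 0.898 (permutation p = 0.00011, 0.00055 adjusted over 5 relations) and Spearman's rho 0.846 (permutation p = 0.001, adjusted 0.005). Without the 2 livers farthest from the median of Ciita r was 0.836, and within the groups it was 0.878 among HuR KD livers (exact permutation p = 0.0375) and 0.954 among LacZ livers (exact permutation p = 0.00556). The shallow liver LacZ 2 held 8 Ciita reads, and r was 0.898 without it.

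Cd74 also rose with the summed dendritic cell markers (r = 0.753, permutation p = 0.00558, adjusted 0.0139; rho = 0.671, permutation p = 0.020, adjusted 0.05002), though r fell to 0.538 without the 2 livers farthest from the median. It was 0.953 among HuR KD livers (exact permutation p = 0.00972) and 0.6253 among LacZ livers (exact permutation p = 0.206). With Kupffer cell markers r was 0.210 (permutation p = 0.506, adjusted 0.506) and rho 0.0490 (permutation p = 0.888, adjusted 0.888). Within the groups r was 0.387 among HuR KD livers (exact permutation p = 0.446) and 0.597 among LacZ livers (exact permutation p = 0.221). With B cell markers r was 0.348 (permutation p = 0.261, adjusted 0.327) and rho 0.371 (permutation p = 0.237, adjusted 0.296). Here r was 0.123 among HuR KD livers (exact permutation p = 0.786) and 0.657 among LacZ livers (exact permutation p = 0.146). For H2-K1 and Nlrc5 r was 0.422 (permutation p = 0.173, adjusted 0.288) and rho 0.503 (permutation p = 0.0985, adjusted 0.164), with r of −0.258 among HuR KD livers (exact permutation p = 0.674) and 0.696 among LacZ livers (exact permutation p = 0.139). These 5 relations were chosen after the values were seen.

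**Figure D3:**
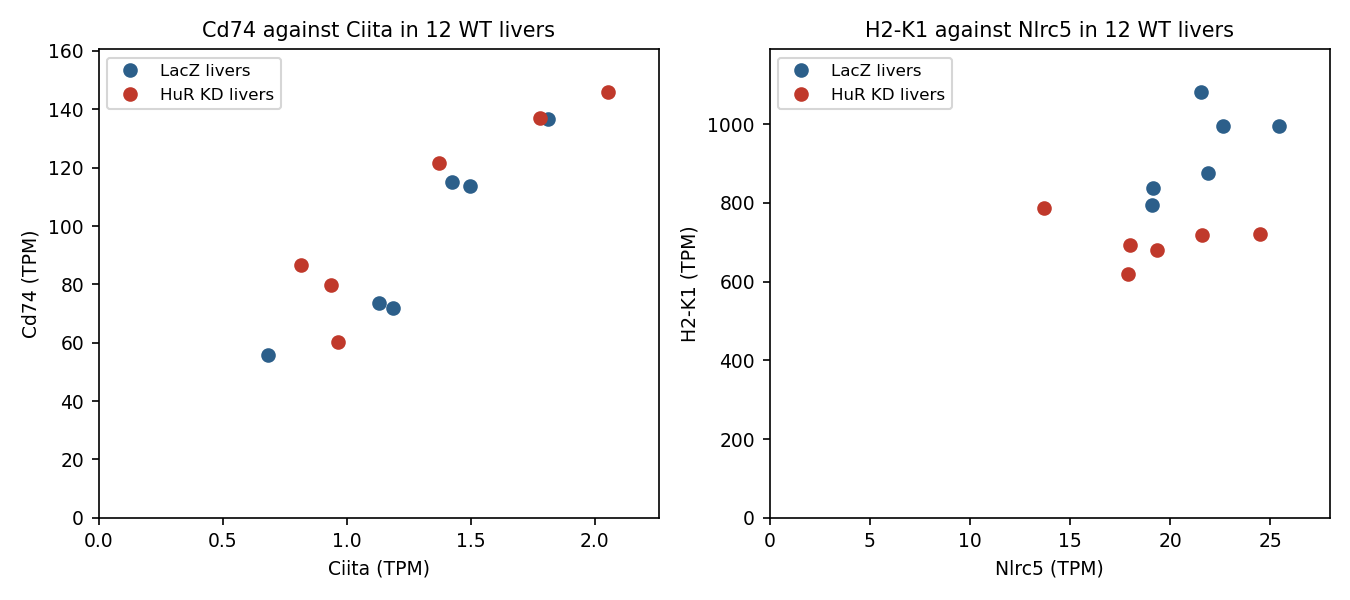
Left, Cd74 against Ciita, and right, H2-K1 against Nlrc5, in TPM for each of the 12 WT livers (6 HuR KD, 6 LacZ); axes start at 0. Cd74 rises with Ciita and the groups mix along the same line (r = 0.898); in H2-K1 the groups separate by level, HuR KD below LacZ, over an overlapping range of Nlrc5.

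Among markers of other cells in WT livers, those of Kupffer cells and macrophages were lower most often. Of 10 tested Kupffer cell and macrophage markers 6 were lower with HuR KD, where 6.94% of all genes tested were lower, and none was higher. Their median log2 fold change was −0.40. All 11 of the list were detected, and their summed level was 482 to 819 TPM with HuR KD and 684 to 939 TPM with LacZ. None of the 3 dendritic cell and 2 B cell markers tested passed, with sums of 6.75 to 10.1 and 4.39 to 6.88 TPM with HuR KD and 7.23 to 10.3 and 4.33 to 7.57 TPM with LacZ. Of 5 tested T and NK cell markers 1 was lower, with sums of 8.79 to 15.9 TPM with HuR KD and 12.1 to 22.1 TPM with LacZ. Of 7 tested endothelial cell markers 1 was higher, and of 6 tested stellate cell markers 1 was lower. None of the 3 neutrophil markers and the 1 cholangiocyte marker tested passed. The part of these cells in the lower class I values was not tested.

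Other genes of the pathway were read from a list of partner genes. In WT livers 38 of the 39 described here were tested, of which 10 were lower and 1 higher with HuR KD, where 6.94% of all genes tested were lower and 9.09% higher. Among loading factors, the chaperones Calr (−0.38, limma adjusted p = 0.132) and Canx (−0.31, limma adjusted p = 0.212) and the editor Tapbpl (−0.34, limma adjusted p = 0.176) fell, and the oxidoreductase Pdia3 was at −0.25 (limma adjusted p = 0.487). Of 7 factors that bind the X and Y boxes (the RFX, NFY and CREB1 proteins) none passed. Of 12 interferon signalling genes described here and tested, 13 being listed, Stat2 (−0.32) and the receptor chain Ifnar1 (−0.13) fell and the kinase Jak1 rose (0.15). Stat2 was 23.5 ± 4.35 TPM with HuR KD and 29.6 ± 4.38 TPM with LacZ (SD, n = 6, limma adjusted p = 0.223).

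Of 5 proteases of class II processing, Ctss (−0.51, limma adjusted p = 0.161), Ctsd (−0.24, limma adjusted p = 0.0528) and Lgmn (−0.32, limma adjusted p = 0.0818) were lower, and in Ctsd and Lgmn the groups did not overlap. Ctsl (0.29, limma adjusted p = 0.324) and Ctsb (−0.12, limma adjusted p = 0.523) did not pass. Among the class I-like molecules, which also pair with beta-2-microglobulin, Hfe, the regulator of iron uptake, had the smallest p of the list. It fell from 44.5 ± 3.51 to 27.8 ± 4.02 TPM (−0.67 ± 0.09, limma adjusted p = 0.00425), and the groups did not overlap. Cd1d1, which presents lipids to NKT cells, fell from 302 ± 35.7 to 240.4 ± 12.7 TPM (−0.32 ± 0.08, limma adjusted p = 0.0722). Mr1 and Fcgrt were at 0.03 and −0.08 and did not pass. The 3 proteasome activator genes were between −0.15 and 0.11 and did not pass.

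In humanized livers the human table could be read for few of the members. Values are given here for 28 of the 30 human members, and 6 of these passed the filter: HLA-B, HLA-C, B2M, ERAP1, PSMB10 and CD74. In limma, 0 of these 6 passed an unadjusted p under 0.05, where 7.87% of the 12738 genes tested were lower with HuR KD and 3.6% higher. The count was also 0 with voom, and 0 after adjustment, where 0.212% of all genes passed. The groups overlapped in each of the 6, and 5.03% of all genes had groups that did not overlap with HuR KD the lower. The split over all genes, 1003 lower and 458 higher, depended on the scaling. It was 835 and 817 with median-of-ratios factors, and 913 and 864 when TPM was rescaled over nuclear protein-coding genes.

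HLA-B was 0.841, 2.70, 4.17 and 2.57 TPM with HuR KD and 3.71, 3.16, 4.69 and 2.81 TPM with LacZ (−0.44 ± 0.30, limma adjusted p = 0.640). HLA-C was 1.53, 6.96, 3.53 and 4.28 TPM with HuR KD and 3.28, 5.85, 3.45 and 1.47 TPM with LacZ (0.15 ± 0.39, limma adjusted p = 0.931). Both pairs of groups overlapped, and the livers with the lowest HLA-C values, HuR KD 1 and LacZ 4, held 6 reads each. The lowest HLA-B value, in HuR KD 1, rested on 4 reads. B2M was 41.7, 53.7, 72.3 and 59.7 TPM with HuR KD and 57.3, 54.0, 65.0 and 44.8 TPM with LacZ (0.02 ± 0.19, limma adjusted p = 0.981). Its groups covered the same range. The difference from the mouse response, tested in a fit over both species, was 0.29 ± 0.19 for B2M (limma adjusted p = 0.438).

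ERAP1 was 7.42, 6.53, 10.7 and 9.74 TPM with HuR KD and 5.60, 11.3, 7.21 and 6.64 TPM with LacZ (0.16 ± 0.22, limma adjusted p = 0.844). Its response differed from that of mouse Erap1 by 0.56 ± 0.22 (limma adjusted p = 0.154), where 4.99% of 8192 gene pairs passed 0.05 after adjustment. With 1 of the 20 livers left out the difference was 0.44 to 0.74, with limma adjusted p from 0.0195 to 0.275. Among these fits it passed adjustment only without humanized LacZ 2, the liver with the highest ERAP1, at 0.74 (adjusted p of 0.0195). Without both deviating livers, a setting added after seeing the data, the difference was 0.68 with an adjusted p of 0.0324. Host, shRNA and alignment differ with species and cannot be told apart.

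PSMB10 was 4.73, 4.47, 5.71 and 6.32 TPM with HuR KD and 4.43, 8.51, 6.65 and 2.26 TPM with LacZ (0.06 ± 0.30, limma adjusted p = 0.967). CD74 was 0.268, 1.32, 1.22 and 2.45 TPM with HuR KD and 1.45, 2.82, 1.92 and 3.08 TPM with LacZ (−0.58 ± 0.33, limma adjusted p = 0.544). CD74 passed the unadjusted threshold without HuR KD 4, at −0.80 (limma adjusted p = 0.349). The lowest CD74 value, in HuR KD 1, rested on 2 reads. The species differences of CD74 and PSMB10, −0.73 ± 0.40 and 0.26 ± 0.29, had limma adjusted p of 0.324 and 0.685. NLRC5, at 0.362 to 1.06 TPM, and CIITA, at 0 to 0.124 TPM, were under the filter.

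**Figure D4:**
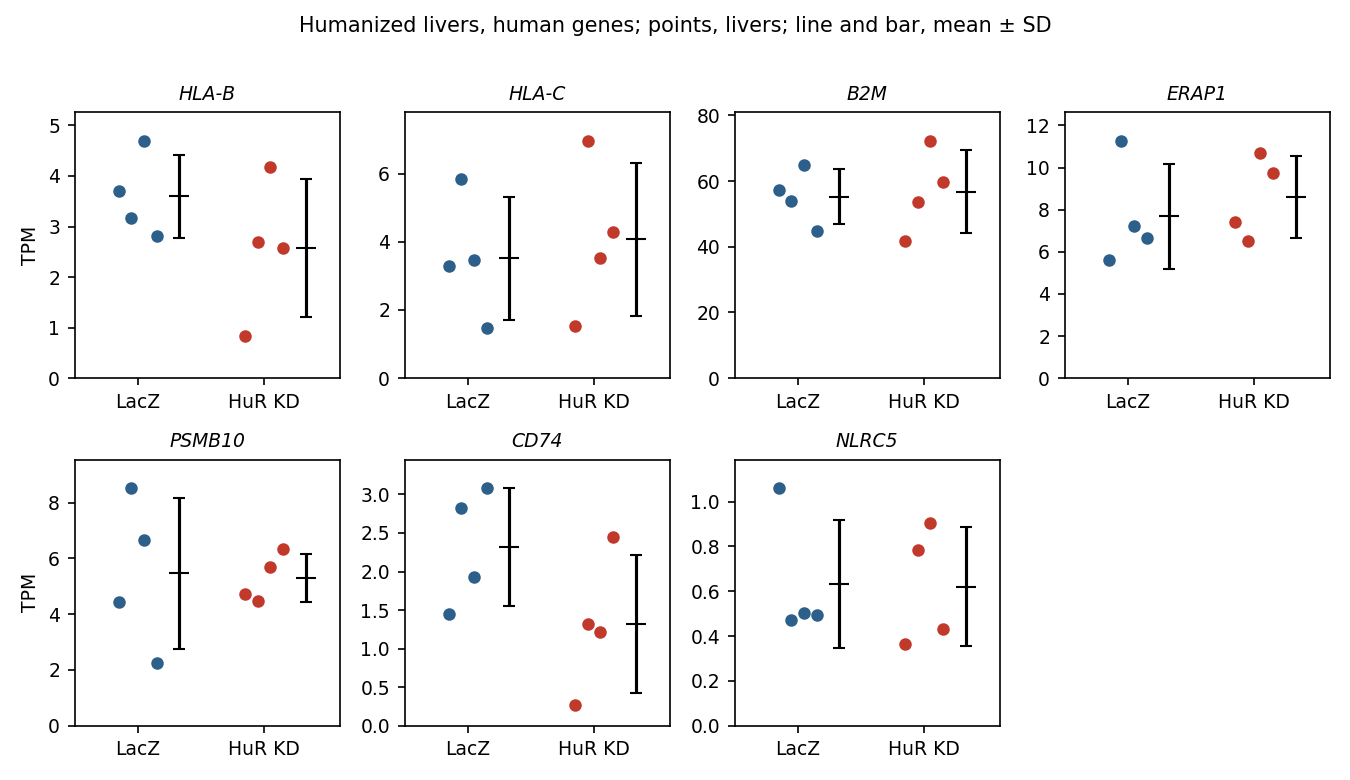
TPM of 7 human antigen presentation genes in each humanized liver (4 HuR KD, 4 LacZ), with the mean and SD of each group; every axis starts at 0. The groups overlap in each of these 7 genes, and the lowest HLA-B (0.841 TPM) and CD74 (0.268 TPM) values are those of HuR KD liver 1. These 2 values rest on 4 and 2 reads.

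Most other human members could not be read. The table lists genes in genome order, and in the rows from HLA-F to TAPBP, the stretch that holds the human MHC, 106 of 148 protein-coding genes (71.6%) were listed at 0 in every liver, against 18.9% of 19816 elsewhere. Genes that every cell uses were also low in these rows: CSNK2B was listed at 0 in all 8 livers and RPS18, a ribosomal protein gene, was at 0 in 5 of 8 and at most 0.334 TPM. Complement genes that hepatocytes make were also low, with CFB at most 0.216 and C2 at most 0.313 TPM. Of 58 genes in these rows whose mouse partner had at least 5 TPM in WT livers, 52 (89.7%) had a mean under 0.1 TPM, against 6.24% of 7592 pairs elsewhere. The cause was not tested, and a value of 0 in these rows says only that the gene is listed at 0.

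Of the 28 human members whose levels are given here, 22 lie in these rows. TAP1, TAP2, PSMB8, PSMB9, HLA-G, HLA-DRA and both HLA-DP chains were among 15 listed at 0 in every liver, and TAPBP, HLA-E, HLA-F, HLA-DRB1 and HLA-DQB1 had means under 0.1 TPM. HLA-B and HLA-C were higher. Whether their values cover all of their transcripts was not tested. Levels of class II chains, of TAP and of Psmb8 and Psmb9 could therefore be read in the WT livers and not in the humanized livers. HLA-DRB5, which only some haplotypes carry, is counted as a member without its level.

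**Figure D5:**
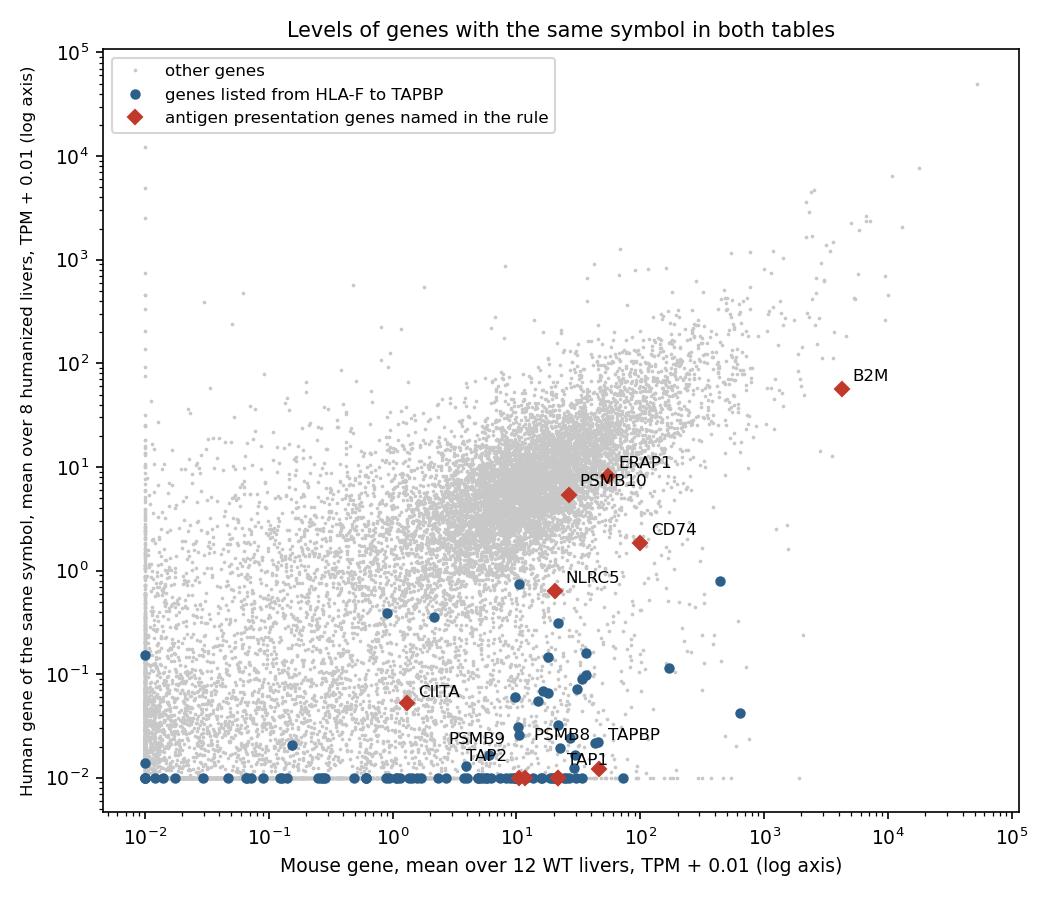
Mean TPM + 0.01 of human genes over 8 humanized livers against the mouse gene of the same symbol over 12 WT livers, on log axes; blue, genes in the rows from HLA-F to TAPBP; red diamonds, the antigen presentation genes chosen by name. B2M, ERAP1, PSMB10, CD74 and NLRC5 lie outside these rows and were detected, while TAP1, TAP2, TAPBP, PSMB8 and PSMB9 lie at or near the floor like their blue neighbours, although their mouse partners are expressed.

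Of the partner genes outside these rows, 36 of 41 described here were tested in humanized livers, with 8 lower and 1 higher, where 7.87% of all genes tested were lower and 3.6% higher. The counts were 7 and 1 with median-of-ratios factors and 6 and 1 with TPM rescaled over nuclear protein-coding genes, and 4 were lower without HuR KD 2 and 5 without LacZ 3. The lower count was 9 without HuR KD 3, without LacZ 2 or with eBayes without trend. Without both deviating livers 11 were lower and 1 higher. PSME3, a proteasome activator, fell from 10.3 ± 1.604 to 4.80 ± 1.37 TPM (SD, n = 4, −0.98 ± 0.19, limma adjusted p = 0.0835), and MR1, which presents vitamin B metabolites, from 4.50 ± 0.768 to 1.85 ± 0.512 TPM (−0.95 ± 0.19, limma adjusted p = 0.0894). In both, the groups did not overlap, as was also so for CTSS and JAK1 with HuR KD the lower and FCGRT with HuR KD the higher. Over the 12738 genes tested, 641 had groups that did not overlap with HuR KD the lower and 271 with HuR KD the higher. TAPBPL fell (−0.59) as did CTSS (−0.65), CD1D (−0.66), JAK1 (−0.53), JAK2 (−0.49) and IFNAR1 (−0.44), and FCGRT, the neonatal Fc receptor, rose (0.43, limma adjusted p = 0.264). CALR and CANX were at 0.13 and 0.03 and HFE at −0.10, and did not pass. None of the 7 X and Y box factors passed. IFI30, IRF8, IRF9, IFNGR2 and SOCS1 were under the filter. Some partner genes outside these rows were thus also read poorly. IRF9 was at 0 in 6 of 8 livers and at most 0.0755 TPM, while mouse Irf9 had a LacZ mean of 32.9 TPM. PSME1 was 3.24 ± 5.39 TPM with HuR KD and 0.766 ± 0.653 TPM with LacZ (SD, n = 4). The cause was not tested.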

How the data were processed

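Total RNA of 20 frozen livers was sequenced as strand-specific libraries. The authors trimmed the reads, aligned them with HISAT2 to mouse GENCODE M23 (WT livers) or to a combined human and mouse index (humanized livers, human GENCODE v32), counted them with featureCounts and deposited TPM per gene, in a table for each species. Trim Galore and Subread are also named in the submitters' processing notes.

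The TPM were used as deposited. For each gene the values of the livers were whole multiples of what 1 read is worth, so reads were recovered within 0.02 reads for 100% of genes with values in at least 4 livers. They gave the depth and a voom alternative. Genes with a mean of at least 1 TPM were tested on log2(TPM + 1) with limma 3.58.1 (lmFit, eBayes with trend, R 4.3.3), HuR KD against LacZ within each table, 6 against 6 and 4 against 4, with Benjamini-Hochberg adjustment over all genes tested. The call threshold was 0.05 on the unadjusted p, which the study also used for HuR KD. The species difference was the interaction in a fit of 20 livers over genes paired by symbol. HuR and the relations across livers had exact permutation tests or 100000 permutations. On simulated data 99.5% (WT), 95.5% (humanized) and 98.8% (species difference) of genes shifted by 1.5 on the log2 scale were called at the unadjusted threshold, as were 5.16%, 5.015% and 7.61% of unchanged genes. This shift is larger than the differences given here, and smaller shifts were not simulated. Promoters were aligned with Biopython 1.88, and 50-base stretches were compared over all GENCODE M21 transcripts.

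The genes named are all those of the rule, with levels for those of at least 1 TPM, plus a list of partner genes and marker lists. Members and lists were chosen with earlier results of these data known. Lists got no test. Alternatives were another pseudocount, other filters, other scalings, voom, eBayes without trend, a replicate block and each liver left out. Leaving out both deviating humanized livers was added after seeing the data, as were the alternatives for the counts of partner genes. Gene coordinates matched by identifier for 45 members, H2-D1 with another identifier version. Human promoters were not used here. Some genes are not reported here and are in none of the counts of members and partner genes tested.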

Additional observations from a re-analysis of the deposited data

Results flagged for a closer look

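Of 70 groups of livers, those of the members tested and of HuR, 3 held a liver far from the rest, and chance flags about 1 in 20. Erap1 in WT HuR KD 6 was the lowest of its group at 36.1 TPM, with the next at 47.3 TPM, a gap of 0.735 of the group's range on log2(TPM + 1), the scale of all gaps here. H2-Q7 in the same liver was the highest of its group at 15.99 TPM, with the next at 13.0 TPM (0.733 of the range). This was the shallowest HuR KD library of the WT livers. H2-Q1 in WT LacZ 2, the shallowest library of all, was 3.56 TPM, with the next at 1.34 TPM (0.755 of the range). Without that liver the log2 fold change of H2-Q1 was 0.075 in place of −0.11. Without HuR KD 6, H2-Q7 passed the unadjusted threshold at −0.23 and Erap1 kept its call.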

How the results depend on the processing

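Among the WT members the count of 14 calls was 10 to 16 with any liver left out and 1 at an adjusted p under 0.05. Members whose groups did not overlap went from 3 to 6 with median-of-ratios factors and to 2 with TPM rescaled over nuclear protein-coding genes, where the groups of Erap1 overlapped, and ranged from 3 to 6 with a liver left out (6 without HuR KD 4). The class I median was −0.18 with no filter on TPM. Among the human members described, the count of calls was 0 to 1 with a liver left out (CD74 without HuR KD 4). Members not overlapping were 1 without both deviating livers (CD74) and 0 to 1 with a liver left out (HLA-B without HuR KD 3, CD74 without HuR KD 4). The median of HLA-B and HLA-C was −0.32 to 0.14 with a liver left out, and above 0 without HuR KD 1. The species difference of ERAP1 was 0.68 without both deviating livers and 0.44 to 0.74 with a liver left out, passing adjustment without LacZ 2. That of PSMB10 was −0.035 to 0.48, negative without LacZ 4.

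Signs turned only among members that were not called. With voom these were H2-Q1 (0.10), HLA-C (−0.047) and PSMB10 (−0.090), and without both deviating livers B2M (−0.015). With a liver left out the ranges were −0.18 to 0.075 for H2-Q1, −0.11 to 0.20 for H2-Aa, −0.075 to 0.076 for Ciita, −0.11 to 0.44 for HLA-C, −0.10 to 0.16 for B2M and −0.23 to 0.29 for PSMB10. Calls of Tap1, Psmb8 and H2-T23 were lost without LacZ 1, LacZ 2, HuR KD 3 or HuR KD 5, that of Psmb9 without LacZ 1, 2, 4 or 6 or HuR KD 1, 3, 4 or 5, and that of B2m with no filter. Psmb10 was called without LacZ 5, Nlrc5 without HuR KD 1, H2-Q4 without LacZ 3 or HuR KD 1 and with median-of-ratios factors, and H2-Q7 without LacZ 3 or HuR KD 6 and with voom. Where no cause is given, the cause was not tested.

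Same-numbered livers did not deviate together (correlations of −0.14 to 0.21 in WT and −0.25 to 0.14 in humanized livers), and no label pairs them. Replicate numbers were read as names of livers, although these correlations cannot exclude a pairing. With the replicate number as a block the WT count was 16 calls, adding Psmb10 and H2-Q4, and the humanized count 0.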
